A study of Mus musculus with 98 samples.

Results

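In the blood leukocytes of mice infused with lipopolysaccharide (LPS, a cell wall component of Gram-negative bacteria), 5 arrays coded x were compared with 6 arrays coded c. They were chosen by title, as the blood arrays of the LPS model that carry the letter E, and make up 11 of the 98 arrays of the series and 11 of its 64 blood arrays. The series covers burn, LPS infusion and trauma-hemorrhage. Per the labels, the letter E marks the infused group and the letter A the sham group, so both groups compared here were infused. What c and x stand for is not explained in the labels, which also give no strain, age, dose or time after infusion. Differences are therefore given as coded, x minus c. Since the labels do not tie the arrays to separate animals, p-values measure only how these samples vary, and that variation may be technical. Leukocyte genes were well above the lowest readable value on both sides: the mean log2 intensities in c and x were 12.61 and 13.44 for S100a8 (neutrophils and monocytes), 9.87 and 9.94 for Cd3e (T cells), and 9.38 and 9.77 for Cd79a (B cells). Alas2, the erythroid heme synthesis enzyme, was also bright, at 13.15 and 13.40.

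LPS is bound by the plasma protein Lbp, passed to Cd14 on myeloid cells and sensed by the receptor pair Tlr4 and Ly96. The adaptors Myd88 and Tirap relay the signal to NF-kB, a family of transcription factors held in the cytosol by inhibitors that are themselves NF-kB targets, while a second branch of the receptor turns on interferon genes. In blood, the response is known for chemokine and cytokine transcripts in myeloid cells, for neutrophils released from the bone marrow, some of them immature and rich in granule protein transcripts, and for changes in circulating monocytes and lymphocytes.

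Promoters of 3 genes that the results turn on are shown, because they were among the 15 genes with the largest positive difference and carry an NF-kB-like motif of 10 letters (GGGA, any 2 bases, then TTCC) in the 250 bases before the start. Cxcl2, a neutrophil-attracting chemokine, is read from chr5:90903649-90903898 (plus strand), Cxcl10, an interferon-induced chemokine, from chr5:92348890-92349139 (minus strand), and Pglyrp1, a bactericidal granule protein, from chr7:18884440-18884689 (plus strand). The sequences are RefSeq's on build GRCm38.p6, 5′ to 3′, and capitals mark matches to it on either strand and, in Cxcl10, also the match to an interferon response-like motif of 10 letters (GAAA, any 2 bases, then GAAA).
Cxcl2: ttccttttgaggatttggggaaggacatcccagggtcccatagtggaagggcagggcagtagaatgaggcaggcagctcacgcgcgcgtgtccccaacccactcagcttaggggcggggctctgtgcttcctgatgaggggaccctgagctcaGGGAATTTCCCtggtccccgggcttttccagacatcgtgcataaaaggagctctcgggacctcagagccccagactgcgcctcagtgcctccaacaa
Cxcl10: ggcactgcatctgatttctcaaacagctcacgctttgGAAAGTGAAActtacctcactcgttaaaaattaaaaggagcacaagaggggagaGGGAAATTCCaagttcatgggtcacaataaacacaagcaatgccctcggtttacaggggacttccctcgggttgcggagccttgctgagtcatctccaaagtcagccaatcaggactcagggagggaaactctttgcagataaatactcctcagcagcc
Pglyrp1: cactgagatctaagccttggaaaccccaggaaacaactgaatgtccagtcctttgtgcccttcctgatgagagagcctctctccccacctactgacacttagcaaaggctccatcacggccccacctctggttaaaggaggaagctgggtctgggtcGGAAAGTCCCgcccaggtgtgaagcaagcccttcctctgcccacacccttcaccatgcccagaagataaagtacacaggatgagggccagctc
In Cxcl2 the capitals are 2 overlapping matches. The NF-kB-like motif was found in 1.17% of all 27025 promoters of this length, in 2.53% of those of the 553 genes higher in x that had a promoter sequence (14 genes) and in 0.737% of those of the 543 genes lower in x that had one (4 genes). The shares for the interferon response-like motif were 3.04%, 2.53% and 2.76%, and those for the C/EBP-like TTGCNNAA were 9.55%, 9.95% and 9.02%. Among the 81 genes at least 2-fold higher that had a promoter sequence, 3 held the NF-kB-like motif (3.70%), 5 the interferon response-like one (6.17%) and 13 the C/EBP-like one, against 1.17%, 2.79% and 8.24% of the 9887 genes tested that had one. Of 16 promoters of named genes looked up, 3 held the NF-kB-like motif, 1 the interferon response-like one and 5 the C/EBP-like one. A match is a description of the letters and not a binding site.

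Values below are log2 normalized intensities, and differences are given in log2 units with the standard error (SE) of limma's fit. A constant of 16 was added before log2, so that differences and folds of dim genes are understated. The deposited intensities had a median of 137.7 to 145 on these arrays, and the lowest value, 32.5, was a floor, reached by 6.25% to 7.12% of probe sets per array (a probe set is a group of short probes read as 1 value). One x array stood apart. On the first principal component, which held 47.3% of the variance, x replicate 5 lay at -2.89, the other x arrays between 22.5 and 27.4, and the c arrays between -22.3 and -10.1. When each array was left out and placed by the genes called without it, with 0 for the mean of the other c arrays and 1 for the mean of the other x arrays, x replicate 5 had a median position of 0.342, against 0.845 to 1.12 for the other x arrays. Of the c arrays, c replicate 5 lay at 0.259 and c replicate 6 at 0.206, and the other 4 between -0.085 and 0.0373. Over genes at least 2-fold higher alone, c replicate 5 lay further toward x, with a median of 0.549 over 118 genes and 56 of them inside the x range, than x replicate 5 did, with 0.444 over 111 genes and 11 inside. Results are also given without x replicate 5, a choice made after its position was seen. Leaving out an array that lies toward the other group tends to enlarge the differences. Adjusted p-values and calls without x replicate 5 are therefore given below as a description. Lists and single genes are not given without c replicate 5, which also lay toward the other group. Without c replicate 5, 1244 probe sets were higher in x and 1016 lower, and without both 1539 and 1865.

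The arrays also differed in a measure of RNA integrity. For the beta-actin controls, the 3′ probe set over the 5′ probe set gave a log2 ratio of 1.08 ± 0.127 (SD, n = 5) in x and 1.56 ± 0.0517 (SD, n = 6) in c, with no overlap, a difference of -0.487 (two-sided exact permutation test, p = 0.00216, the smallest that 462 assignments allow). The same ratio for Gapdh differed the other way, 2.91 ± 0.0771 (SD, n = 5) in x against 2.73 ± 0.0664 (SD, n = 6) in c (exact permutation test, p = 0.00433). The beta-actin ratio of x replicate 5, 1.11, lay within the range of the other x arrays, 0.938 to 1.27. With this ratio as a covariate in the fit, limma called 2 probe sets higher and 2 lower in x. Because the ratio separated the groups completely, its part and the part of the code in any difference below cannot be told apart.

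**Figure D1:**
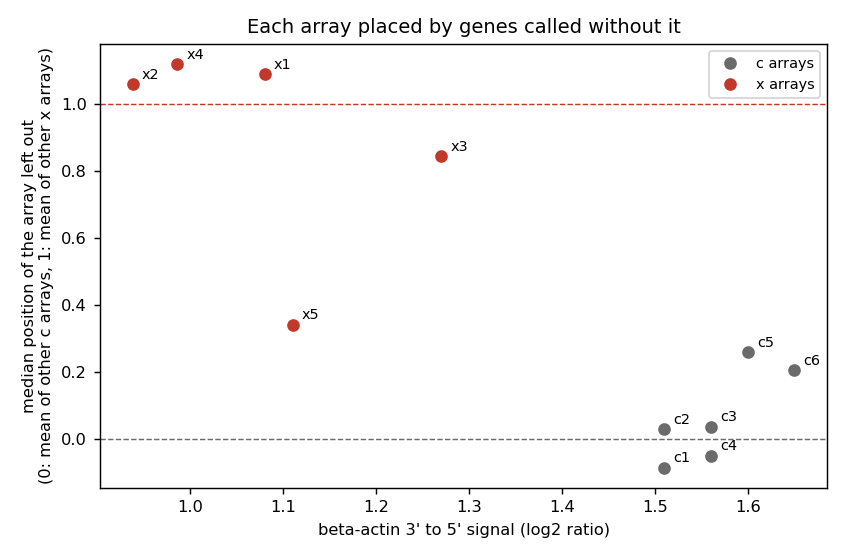
Each array of the comparison is plotted by its beta-actin 3′ to 5′ log2 ratio (x axis) and by its median position between the other c arrays (0) and the other x arrays (1) over the genes called without it (y axis). The array x5 lies at 0.342 although its ratio of 1.11 is that of an x array, and the c arrays lie between -0.085 and 0.259.

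At an adjusted p of 0.05 (Benjamini-Hochberg over all 22626 probe sets), limma called 1171 probe sets higher in x (5.18%) and 1081 lower (4.78%). The balance of directions depended on the scaling: without normalization 1031 were higher and 704 lower, and with each array scaled to the same median 1184 and 709. Without x replicate 4 there were 720 and 587. With 1 probe set for each of 12393 genes, 676 genes were higher (5.45%) and 671 lower (5.41%), around a median of -0.00426 over all genes. Large differences lay mostly on 1 side: 98 genes were at least 2-fold higher (0.791%) and 6 at least 2-fold lower (0.0484%), and without x replicate 5 these were 111 and 30. The x and c arrays did not overlap in 420 genes higher (3.39%) and 395 lower (3.19%). Without x replicate 5, 870 genes were higher (7.02%) and 1104 lower (8.91%), among them 629 and 644 of those called with it. Counts of list members below stand against these shares, and against 5.45% and 5.41% with all arrays. The titles fall into 2 runs of consecutive numbers. Among the 3 x and 3 c arrays of the first run alone, 765 probe sets were higher and 1145 lower. Among the 2 x and 3 c arrays of the second run, which holds x replicate 5 and c replicate 5, limma called 0 in each direction, with 1238 higher and 1207 lower at an unadjusted p under 0.05. In whole blood leukocytes, fewer cells of a type and less RNA per cell cannot be told apart. Of the 164 genes that passed and are named or were chosen for naming, 49 lost their call when x replicate 4 was left out, and the removal of each other array ended between 5 and 41 of the same calls. Those 49 are marked below as not passing without x replicate 4.

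Of 19 measured genes of LPS and Toll-like receptor signalling, 5 were higher in x and 2 lower, with a median of 0.10 (without x replicate 5, 6 and 3). Cd14, the LPS co-receptor, read 10.81, 11.13, 10.78, 10.82 and 9.30 on x replicates 1 to 5 and from 8.07 to 9.80 with a median of 8.58 on the c arrays. It was higher by 1.88 ± 0.37, adjusted p = 0.0119, or 2.19 without x replicate 5. Its x replicate 5 lay below the other x arrays and below the highest c array. Tlr2, the receptor for bacterial lipoproteins, read 9.16, 9.35, 8.93, 9.65 and 8.20 against a range from 7.24 to 8.0 with a median of 7.29. It was higher by 1.62 ± 0.24, adjusted p = 0.00328, or 1.83 without x replicate 5, and all x arrays lay above all c arrays. The adaptors Myd88 (0.88 ± 0.13) and Tirap (0.73 ± 0.12) and the inhibitor Tollip (0.57 ± 0.09) also rose. Ly86, the partner of Cd180, fell (-0.83 ± 0.14), as did Tlr1 (-0.76 ± 0.16). Tlr4 itself differed by 0.64 ± 0.18, adjusted p = 0.0512, with all arrays. Without x replicate 5 it differed by 0.68 (an adjusted p of 0.05 when rounded), and the 6 above include it at that rounded value. Its partner Ly96 (0.12 ± 0.10), Irak1 (0.02 ± 0.08), Traf6 (0.07 ± 0.05) and Ikbkb (-0.0018 ± 0.19) did not pass. Cd180 (-0.76, adjusted p = 0.0133) passed without x replicate 5.

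NF-kB subunits and inhibitors were the list with the highest share of members called: 10 of 12 were higher, 0 lower, with a median of 0.68 (9 higher without x replicate 5, when Nfkbiz no longer passed). The mean over the list lay from 8.28 to 8.53 on the c arrays and from 8.75 to 9.46 on the x arrays, without overlap. Bcl3, a nuclear cofactor of the NF-kB subunits, read 9.53, 9.59, 9.49, 9.82 and 8.77 on x replicates 1 to 5 and from 7.23 to 7.97 with a median of 7.60 on the c arrays. All 5 x arrays lay above all c arrays, and the difference was 1.82 ± 0.19, adjusted p = 0.000669. Relb, a subunit of the noncanonical pathway, read 8.38, 8.51, 8.06, 8.57 and 7.29 against values from 6.80 to 6.88 with a median of 6.85, and rose by 1.32 ± 0.20, adjusted p = 0.00343. The inhibitors Nfkbie (1.44 ± 0.19), Nfkbib (0.50 ± 0.09), Nfkbia (0.40 ± 0.11) and Tnip1 (1.02 ± 0.22) rose, as did the subunits Nfkb2 (0.50 ± 0.11) and Rela (0.42 ± 0.08) and the target Tnfaip2 (1.20 ± 0.22). Tnfaip3, a feedback inhibitor (-0.13 ± 0.10), and Rel (0.06 ± 0.05) did not pass. Nfkbiz, Nfkbia and Tnip1 no longer passed without x replicate 4.

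Of 16 cytokine genes measured, 4 were higher and 1 lower (median 0.05; without x replicate 5, 4 and 1). Il1b, the main secreted interleukin 1, read 11.17, 10.97, 11.47, 11.39 and 11.32 on x replicates 1 to 5 and from 9.51 to 10.79 with a median of 9.86 on the c arrays. It rose by 1.24 ± 0.22, adjusted p = 0.00756, with x replicate 5 within the range of the other x arrays. Its antagonist Il1rn (0.29 ± 0.08) and Tgfb1 (0.42 ± 0.09) rose by less. Il6, read close to the floor, rose too (0.35 ± 0.10, adjusted p = 0.0461) and lost its call without x replicate 5 (0.28, adjusted p = 0.0585). Il12b, an interleukin 12 subunit also read close to the floor, fell (-0.25 ± 0.05). Tnf (-0.03 ± 0.11), Il10 (0.05 ± 0.09) and Csf3 (0.05 ± 0.08) did not pass. Among 22 cytokine receptors, 6 were higher and 1 lower (median 0.24; without x replicate 5, 7 higher and 1 lower). Il1r2, the decoy receptor for interleukin 1, read 10.66, 10.36, 10.23, 10.59 and 9.16 in x and from 7.07 to 9.54 with a median of 7.42 in c, a difference of 2.38 ± 0.47, adjusted p = 0.0109, or 2.64 without x replicate 5. The value of c replicate 5, 9.54, lay above that of x replicate 5. Tnfrsf1b (0.55 ± 0.09), Csf2rb (0.82 ± 0.22) and Il4ra (0.28 ± 0.05) also rose. Il1rn, Il6, Il12b and Csf2rb no longer passed without x replicate 4. Il4ra no longer passed with all 12 blood groups in the fit. Il1b no longer passed with the 4 LPS blood groups in the fit.

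Chemokines showed a pair of large differences among small ones: 4 of 19 were higher and 0 lower (median 0.11; without x replicate 5, 4 higher and 1 lower). Cxcl2 read 9.5, 10.56, 10.38, 10.86 and 9.88 on x replicates 1 to 5 and from 6.03 to 8.70 with a median of 7.07 on the c arrays. The groups did not overlap, x replicate 5 lay among the other x arrays, and Cxcl2 was 8.69-fold higher (3.12 ± 0.48, adjusted p = 0.00358). Cxcl10 read 8.88, 9.45, 9.21, 9.29 and 6.46 in x and from 5.79 to 6.02 with a median of 5.91 in c. The first 4 x arrays were far above every c array, x replicate 5 was only just above them, and the difference was 2.75 ± 0.47, adjusted p = 0.00614, or 3.30 without that array. Cxcl1 (0.47 ± 0.11) also rose, but read close to the floor on the c arrays (5.51 to 5.81), where differences are understated. Ccl4 (0.16 ± 0.04) rose by less, while Ccl2 (0.09 ± 0.06), Ccl3 (0.31 ± 0.10) and Ccl5 (-0.25 ± 0.11) did not pass. Of 13 chemokine receptors, 4 were higher and 1 lower (median 0.0041; without x replicate 5, 4 higher and 2 lower). Ccrl2, an atypical receptor of myeloid cells (1.90 ± 0.31), Ccr1 (1.37 ± 0.30) and the neutrophil receptor Cxcr2 (1.20 ± 0.33) rose and Ccr9 fell (-0.59 ± 0.13). Ccr2, which brings monocytes out of the marrow, differed by -1.13 ± 0.38, adjusted p = 0.0935 with all arrays and by -1.50 (adjusted p = 0.00249) without x replicate 5. Cxcl1, Ccl4, Ccr1 and Cxcr2 no longer passed without x replicate 4. Ccl4 also lost its call without x replicate 5 (0.16, adjusted p = 0.0519). Ccr9 no longer passed with all 12 blood groups in the fit.

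Interferon response genes moved in part. Of 30 measured, 7 were higher and 1 lower (median 0.28), and 14 higher and 1 lower without x replicate 5 (median 0.34). With each array scaled to the same median, 11 were higher and 0 lower. Irf1, a transcription factor of the interferon response, read 8.49, 8.82, 8.80, 8.95 and 8.43 on x replicates 1 to 5 against c values from 7.74 to 7.99 with a median of 7.94. It rose by 0.80 ± 0.10, adjusted p = 0.00134. Parp14 (0.91 ± 0.17), Cmpk2 (0.85 ± 0.17), Usp18, which removes Isg15 from proteins (0.73 ± 0.18), Irf9 (0.42 ± 0.07) and the nucleic acid sensor Zbp1 (0.40 ± 0.10) rose too. Rsad2, an antiviral enzyme, fell (-0.33 ± 0.06). Ifit1 (0.94 ± 0.28, adjusted p = 0.0577) and Ifit3 (0.46 ± 0.14, adjusted p = 0.0591) passed only without x replicate 5, at 1.22 (adjusted p = 0.00142) and 0.59 (adjusted p = 0.00324). Mx1 (0.12 ± 0.13), Oas1a (-0.05 ± 0.12) and Stat2 (-0.02 ± 0.07) did not pass in either fit. Of 23 JAK, STAT, IRF and SOCS genes, 6 were higher and 0 lower (median 0.19; without x replicate 5, 8 higher and 0 lower), among them Stat3 (0.84 ± 0.13), Stat6 (0.89 ± 0.12), Jak1 (0.38 ± 0.07) and Socs3, the feedback inhibitor of Stat3 signalling (1.32 ± 0.33). Usp18, Zbp1 and Socs3 no longer passed without x replicate 4. Rsad2 no longer passed without normalization or with each array scaled to the same median. Jak1 no longer passed without normalization.

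Of 14 class I and immunoproteasome genes, 5 were higher and 0 lower (median 0.17; without x replicate 5, 6 higher and 2 lower). The class I heavy chains H2-D1 (0.76 ± 0.09) and H2-K1 (0.54 ± 0.07), the peptide transporter Tap1 (0.39 ± 0.07), Psmb9 (0.27 ± 0.05) and B2m (0.19 ± 0.05) rose. Without x replicate 5 the chaperone Canx (-0.67, adjusted p = 0.0103) and the peptidase Erap1 (-0.29, adjusted p = 0.0243) also passed, on the lower side. Class I heavy chain genes resemble each other in sequence, and the probe sets of H2-D1 ranged from -0.09 to 0.97. Of 9 class II genes, 0 were higher and 2 lower (median -0.04): H2-Eb1 (-0.52 ± 0.10) and H2-Aa (-0.40 ± 0.07) fell, while H2-Ab1 (-0.04 ± 0.15), H2-Oa (-0.43 ± 0.16) and the invariant chain Cd74 (0.03 ± 0.08) did not pass. B2m no longer passed without x replicate 4. H2-Aa no longer passed with each array scaled to the same median. Tap1, Psmb9 and H2-Aa no longer passed with all 12 blood groups in the fit.

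Neutrophil granule genes held many of the largest differences. Of 18 measured, 10 were higher and 0 lower, with a median of 1.34 (11 higher and a median of 1.48 without x replicate 5). Ngp, a protein of specific granules, read 12.33, 12.80, 12.13, 12.51 and 8.47 on x replicates 1 to 5 and from 7.76 to 8.90 with a median of 7.86 on the c arrays. The first 4 x arrays were far above every c array and x replicate 5 lay among the c arrays. Lcn2, which binds bacterial siderophores, read 12.36, 12.36, 12.06, 12.50 and 10.09 in x and from 7.59 to 10.71 with a median of 8.12 in c. Ngp was higher by 3.63 ± 0.71, adjusted p = 0.0107, and Lcn2 by 3.33 ± 0.63, adjusted p = 0.00944, or by 4.43 and 3.78 without x replicate 5. The list's mean lay from 8.52 to 9.51 on the c arrays and from 9.44 to 10.68 on the x arrays.

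Pglyrp1 read 11.48, 11.39, 11.09, 11.73 and 10.00 on x replicates 1 to 5 and from 7.81 to 9.18 with a median of 8.28 on the c arrays. The groups did not overlap, x replicate 5 was the lowest x array, and the gene was 7.01-fold higher (2.81 ± 0.33, adjusted p = 0.00118, or 3.10 without x replicate 5). Cd177, a surface protein of neutrophil subsets, read 10.80, 11, 10.52, 11.01 and 9.02 against values from 7.05 to 8.09 with a median of 7.49, a difference of 2.94 ± 0.36, adjusted p = 0.00132, or 3.30 without x replicate 5. The collagenase Mmp8 (3.03 ± 0.51) and the gelatinase Mmp9 (1.44 ± 0.19) rose, as did the cathelicidin Camp (2.82 ± 0.66), lactoferrin, Ltf (2.65 ± 0.66), haptoglobin, Hp (1.62 ± 0.32), and S100a9 (1.24 ± 0.28). For Camp and Ltf, x replicate 5 read 6.61 and 6.75, below every c array for Camp and within the c range for Ltf, and leaving out x replicate 1, 2, 3 or 4 or c replicate 1, 3 or 4 ended both calls. The primary granule genes, made earliest in neutrophil development, did not pass: Mpo differed by -0.0048 ± 0.08, Elane by -0.07 ± 0.12, Ctsg by -0.04 ± 0.07 and Prtn3 by -0.17 ± 0.09. S100a8 (0.82 ± 0.25) passed only without x replicate 5 (adjusted p = 0.0485). S100a9 no longer passed without x replicate 4.

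**Figure D2:**
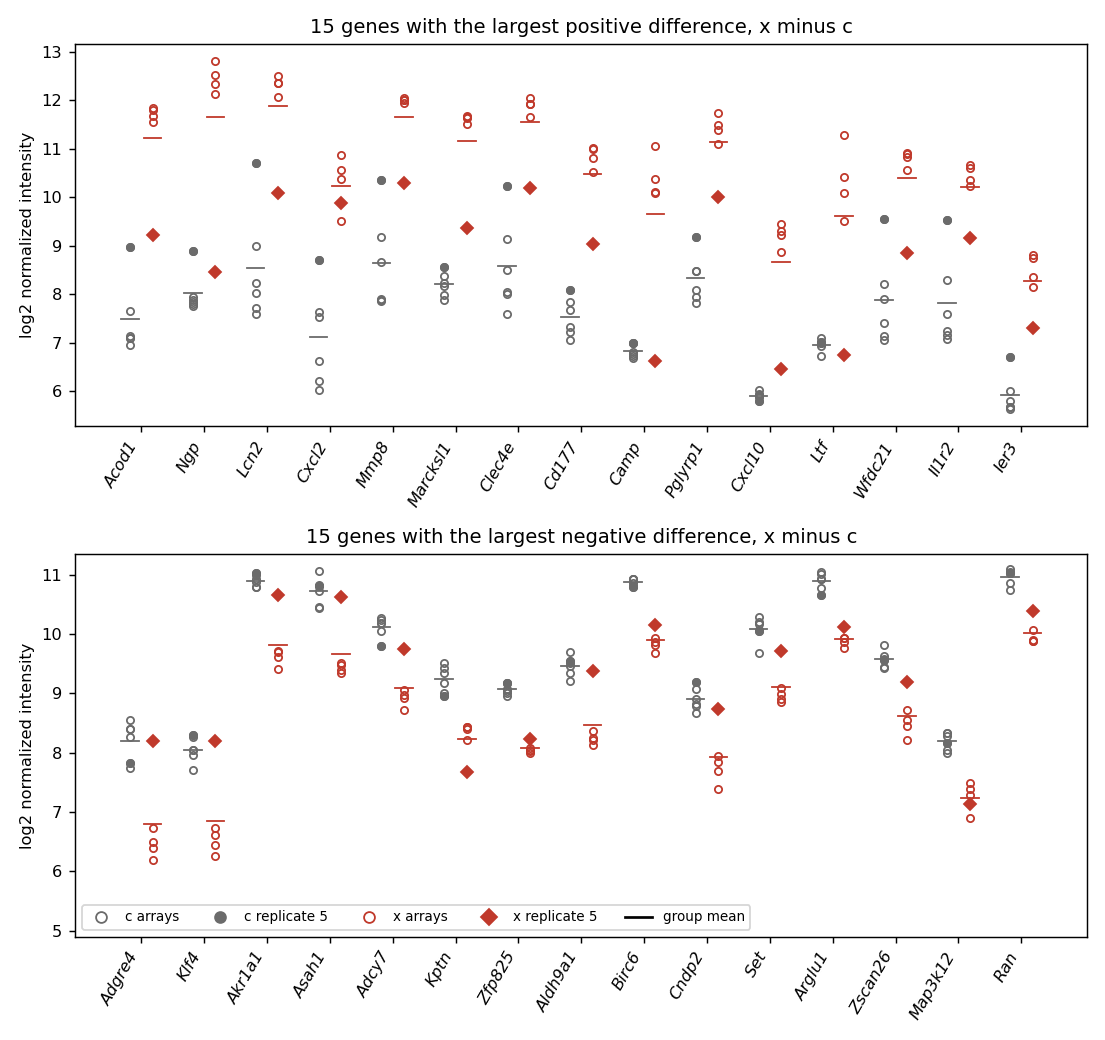
Log2 normalized intensity of the 15 genes with the largest positive (top) and the 15 with the largest negative difference (bottom) is plotted for each array, with grey c arrays, red x arrays, lines for group means and filled marks for the replicates numbered 5. In the top panel x replicate 5 lies between the groups or with c for most genes, at 8.46 for Ngp and 6.61 for Camp, while for Cxcl2 it reads 9.88, inside the range of the other x arrays.

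Neutrophil surface receptors moved with the granule genes: 7 of 11 were higher and 0 lower (median 0.68; without x replicate 5, 8 higher and 0 lower). Fpr2, a formyl peptide receptor, read 12.56, 12.42, 12.30, 12.59 and 10.89 on x replicates 1 to 5 and from 9.23 to 11.08 with a median of 9.72 on the c arrays, and rose by 2.26 ± 0.42, adjusted p = 0.00841, or 2.58 without x replicate 5. Csf3r, the receptor for the granulocyte growth factor (0.92 ± 0.17), Trem1 (0.68 ± 0.14), Selplg, a selectin ligand (0.78 ± 0.18), and Ceacam1 (0.15 ± 0.04) rose, while Itgam (0.48 ± 0.18) did not pass. The list's mean lay from 8.28 to 9.20 on the c arrays and from 9.07 to 9.61 on the x arrays, and c replicate 5, the highest c array, lay above x replicate 5. Of 16 acute phase and antimicrobial genes, which share members with the granule list, 8 were higher and 0 lower (median 1.51). Outside the shared members, the protease inhibitor Slpi (1.51 ± 0.20), Wfdc21 (2.52 ± 0.52) and the transcription factor Cebpb (1.64 ± 0.17) rose. Saa3 (0.61 ± 0.38), Lrg1 (1.5 ± 0.68) and Cebpd (0.79 ± 0.33) did not pass. Selplg and Ceacam1 no longer passed without x replicate 4. Trem1 no longer passed with all 12 blood groups in the fit.

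Of 10 C-type lectin receptors, 3 were higher and 0 lower (median 0.32; without x replicate 5, 5 higher and 0 lower). Clec4e, which senses mycobacterial glycolipids, read 12.05, 11.65, 11.93, 11.93 and 10.19 on x replicates 1 to 5 and from 7.58 to 10.23 with a median of 8.27 on the c arrays, a difference of 2.97 ± 0.50, adjusted p = 0.00572, or 3.31 without x replicate 5. The array c replicate 5 read 10.23, as high as x replicate 5. Clec5a (0.91 ± 0.19) and Clec4n (0.49 ± 0.13) were the others. Genes of the NADPH oxidase and oxidative defence had 8 of 19 members higher and 1 lower (median 0.12). They included the oxidase subunits Ncf1 (1.54 ± 0.21), Cyba (0.73 ± 0.14), Rac2 (0.68 ± 0.13) and Ncf4 (0.54 ± 0.14), mitochondrial Sod2 (1.07 ± 0.21), and thioredoxin, Txn1 (1.04 ± 0.23). Cytosolic Sod1 fell (-0.57 ± 0.09), and the oxidase subunit Cybb (0.49 ± 0.16) and Hmox1 (-0.03 ± 0.14) and Nqo1 (-0.26 ± 0.10) did not pass. Among 16 leukocyte adhesion genes, 3 were higher and 1 lower (median 0.08): Icam1, a ligand of leukocyte integrins (1.55 ± 0.23), Selplg and Itgb2 (0.36 ± 0.09) rose and Itgb7 fell (-0.53 ± 0.11). Of 17 Fc receptor and complement genes, 2 were higher and 0 lower (median -0.02; without x replicate 5, 3 higher and 0 lower): properdin, Cfp (1.19 ± 0.26), and the kinase Syk (0.49 ± 0.06), while the Fc receptor chain Fcer1g (0.41 ± 0.13) did not pass. Clec4n, Ncf4, Txn1, Itgb2 and Cfp no longer passed without x replicate 4. Fcer1g (0.50, adjusted p = 0.0183) passed without x replicate 5. Itgb7 no longer passed without normalization or with each array scaled to the same median.

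The largest difference of all genes was that of Acod1, the enzyme that makes itaconate from a citric acid cycle intermediate in activated myeloid cells. It read 11.55, 11.83, 11.67, 11.80 and 9.22 on x replicates 1 to 5 and from 6.95 to 8.97 with a median of 7.12 on the c arrays. The groups did not overlap, although x replicate 5 lay close to c replicate 5 (8.97), and Acod1 was 13.3-fold higher (3.73 ± 0.53, adjusted p = 0.00264, or 4.23 without x replicate 5). Arginase 2, Arg2, read 9.93, 9.74, 9.7, 9.92 and 8.94 against values from 6.77 to 9.21 with a median of 7.26, and rose by 2.04 ± 0.41, adjusted p = 0.0123, or 2.21 without x replicate 5. The polyamine enzymes Sat1 (0.51 ± 0.13) and Odc1 (0.45 ± 0.12) rose, and Nos2 (-0.0076 ± 0.06) and Arg1 (0.12 ± 0.08) did not pass, so that 4 of 9 genes of this list were higher and 0 lower (median 0.12; without x replicate 5, 3 higher and 0 lower). Slc2a3, a glucose transporter, read 11.71, 11.85, 11.69, 11.85 and 11.62 on x replicates 1 to 5 and from 10.21 to 10.61 with a median of 10.47 on the c arrays. Its x arrays lay close together, x replicate 5 included, and it rose by 1.30 ± 0.08, adjusted p = 0.000106. Pyruvate kinase, Pkm (0.79 ± 0.12), was the other of 2 genes higher among 16 of glycolysis and Hif1a, with 0 lower (median 0.11). Slc2a1 (0.96 ± 0.32), Ldha (0.32 ± 0.15) and Hif1a (0.29 ± 0.17) did not pass. Sat1 and Odc1 no longer passed without x replicate 4. Odc1 also lost its call without x replicate 5 (0.42, adjusted p = 0.0698).

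Of 13 prostaglandin and leukotriene genes, 2 were higher and 0 lower (median 0.02; without x replicate 5, 2 higher and 1 lower): Alox12, the platelet lipoxygenase (0.71 ± 0.13), and Alox5ap, which presents arachidonate to the leukotriene lipoxygenase (0.55 ± 0.14), while the prostaglandin enzymes Ptgs2 (0.18 ± 0.06) and Ptges (0.18 ± 0.06) did not pass. In iron handling, 2 of 15 genes were higher, the ferritin heavy chain Fth1 (0.45 ± 0.07) and the phagosomal metal transporter Slc11a1 (0.89 ± 0.20), and 1 lower, Aco1 (-0.45 ± 0.12; median -0.05; without x replicate 5, 2 higher and 2 lower). Of 11 basophil, mast cell and eosinophil genes, 1 was higher and 0 lower (median 0.0072). That gene was Hdc, the histamine-forming enzyme, which is not restricted to those cells (1.61 ± 0.38, adjusted p = 0.0245), and the basophil protease Mcpt8 (0.10 ± 0.05), Cpa3 (-0.006 ± 0.14), Il5ra (-0.06 ± 0.04) and Prg2 (-0.07 ± 0.08) did not pass. Alox5ap, Slc11a1, Aco1 and Hdc no longer passed without x replicate 4.

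Genes of stress and feedback were mixed. Of 27 immediate early genes, 4 were higher and 1 lower (median 0.06; without x replicate 5, 5 higher and 3 lower). Ier3 read 8.35, 8.74, 8.15, 8.81 and 7.30 on x replicates 1 to 5 and from 5.63 to 6.71 with a median of 5.73 on the c arrays, without overlap, and rose by 2.36 ± 0.29, adjusted p = 0.00135. Zfp36, which speeds decay of cytokine messages (1.30 ± 0.15), the phosphatase Dusp2 (0.66 ± 0.07) and Junb (0.35 ± 0.05) rose, Klf4 fell (-1.20 ± 0.31), and Fos (-0.74 ± 0.41), Egr1 (-0.18 ± 0.34) and Jun (0.45 ± 0.14) did not pass. Of 23 apoptosis and p53 genes, 6 were higher and 0 lower (median 0.13; without x replicate 5, 7 higher and 0 lower): the death receptor Fas (1.26 ± 0.19), Casp4, the caspase that senses cytosolic LPS (1.20 ± 0.27), the NF-kB target Birc3 (0.87 ± 0.11), Bcl2l11 (0.53 ± 0.14), Gadd45b (0.47 ± 0.11) and Mdm2 (0.37 ± 0.09). Of 17 glucocorticoid-induced genes, 4 were higher and 1 lower (median 0.16; without x replicate 5, 5 higher and 2 lower), and 2 of those higher, Il1r2 and Nfkbia, stand in the lists above too. Tsc22d3 (0.41 ± 0.08) and Errfi1 (0.85 ± 0.16) rose, Per1 fell (-0.49 ± 0.10), and Fkbp5 (-0.16 ± 0.07) did not pass. Per1 was the only one of 15 circadian clock genes that passed (median 0.03), with Nfil3 (0.68 ± 0.19) and Cry2 (0.26 ± 0.08) next by p. Marcksl1, a MARCKS family protein, read 11.63, 11.67, 11.51, 11.66 and 9.37 in x and from 7.87 to 8.55 with a median of 8.20 in c, and rose by 2.97 ± 0.40, adjusted p = 0.00191, or 3.42 without x replicate 5, with 4 probe sets between 2.82 and 3.46. Casp4, Bcl2l11, Gadd45b and Mdm2 no longer passed without x replicate 4. Fos (-1.15, adjusted p = 0.0129) passed without x replicate 5. Junb and Tsc22d3 no longer passed with all 12 blood groups in the fit.

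**Figure D3:**
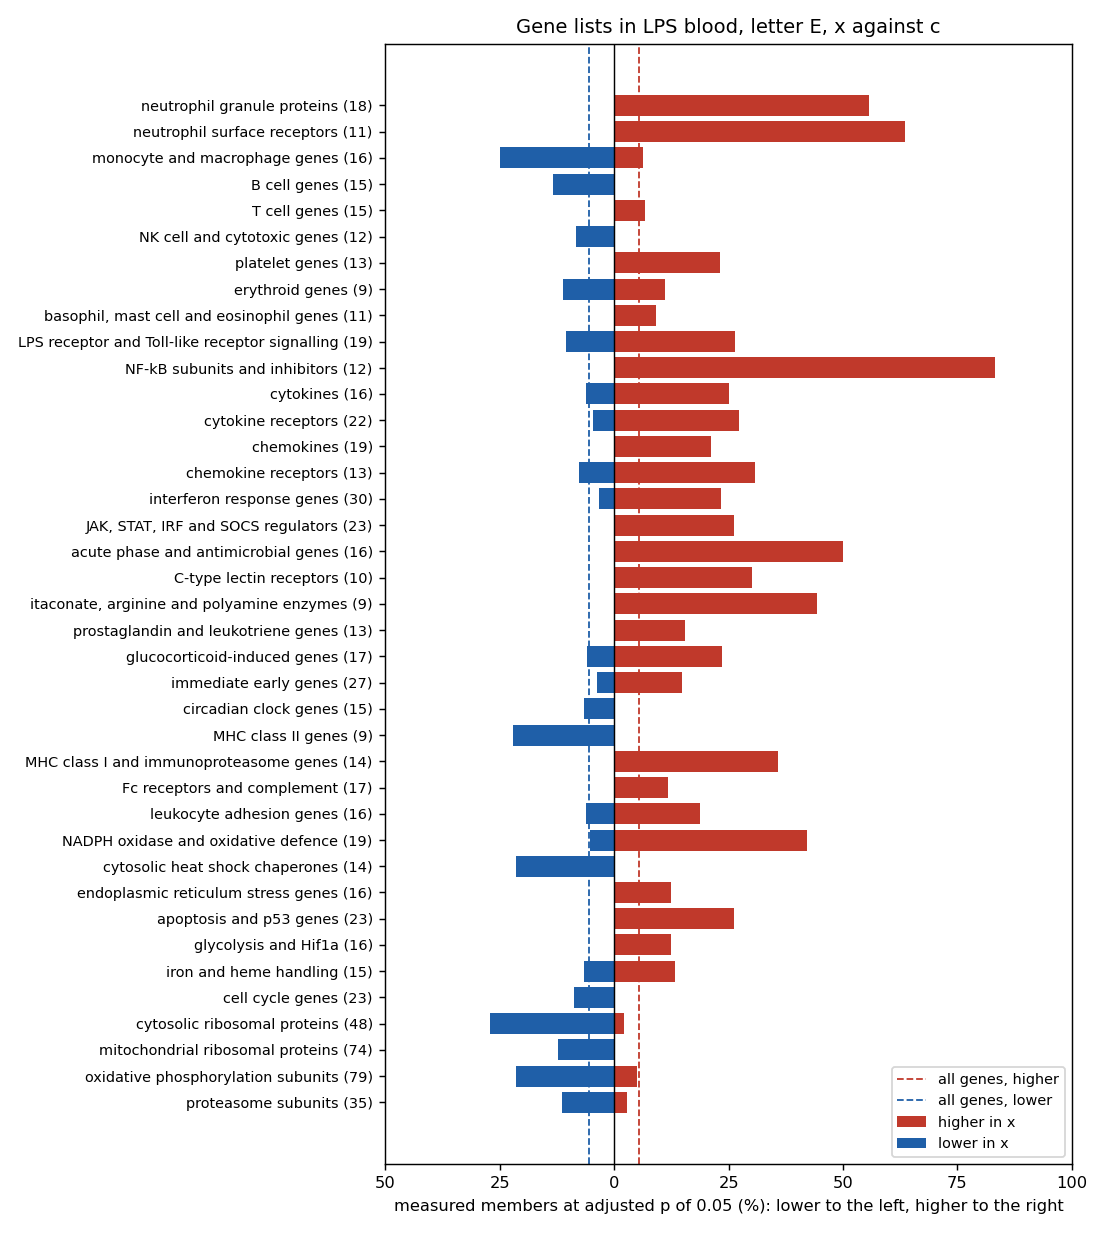
For each gene list (number of measured genes in brackets), red bars give the percent of members higher in x and blue bars the percent lower, at limma's adjusted p of 0.05, and dashed lines mark the shares among all genes, 5.45% and 5.41%. NF-kB subunits and inhibitors have the longest red bar, with 10 of 12 members, and cytosolic ribosomal proteins the longest blue one, with 13 of 48, or 4 without normalization or with median scaling.

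Monocyte and macrophage genes were lower more often than higher: 4 of 16 were lower and 1, Cd14, higher, with a median of -0.43, and without x replicate 5 there were 7 lower and 1 higher (median -0.60). Without normalization 2 were lower and with median scaling 3. The list's mean lay from 9.46 to 10.00 on the c arrays and from 9.17 to 9.84 on the x arrays. Adgre4, an adhesion receptor of circulating monocytes, read 6.74, 6.39, 6.19, 6.49 and 8.20 on x replicates 1 to 5 and from 7.74 to 8.55 with a median of 8.33 on the c arrays. The first 4 x arrays were below every c array, x replicate 5 lay among the c arrays, and the difference was -1.40 ± 0.34, adjusted p = 0.027, or -1.75 without x replicate 5. Csf1r, the receptor for the monocyte growth factor, read 10.91, 10.57, 10.82, 10.66 and 11.32 against values from 11.52 to 12.05 with a median of 11.68, and fell (-0.88 ± 0.14, adjusted p = 0.00445, or -0.99 without x replicate 5). Ms4a6b (-0.76 ± 0.15) and cathepsin S, Ctss (-0.75 ± 0.16), fell, and Ms4a6c (-1.19 ± 0.35), Adgre1 (-0.46 ± 0.18), Cd68 (-0.06 ± 0.23) and Cx3cr1 (-0.12 ± 0.11) did not pass. Adgre4, like Klf4, lost its call when any 1 of x replicates 1 to 4 or c replicates 1 to 4 was left out. Klf4, a transcription factor of monocytes, read 6.62, 6.74, 6.26, 6.44 and 8.20 in x and from 7.70 to 8.30 with a median of 8.04 in c, a difference of -1.20 ± 0.31, adjusted p = 0.0357, or -1.54 without x replicate 5, with x replicate 5 again among the c arrays. Ms4a6c (-1.52, adjusted p = 0.00255) passed without x replicate 5. Ctss no longer passed without normalization or with each array scaled to the same median. Ms4a6b no longer passed without normalization.

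Lymphocyte lists had 1 or 2 members called with all arrays. The shares over all genes were 5.45% higher and 5.41% lower (without x replicate 5, 7.02% and 8.91%). The 1 T cell gene (6.67%) and the 1 natural killer gene (8.33%) called were near those shares. Of 15 B cell genes, 2 were lower and 0 higher (median -0.15), the receptor component Cd79b (-0.80 ± 0.18) and Tnfrsf13c (-0.82 ± 0.22), while Cd79a, the partner of Cd79b (0.39 ± 0.14), and the transcription factors Ebf1 (-0.61 ± 0.18) and Pax5 (-0.03 ± 0.04) did not pass. Without x replicate 5, 5 B cell genes were lower, without normalization 0 and with median scaling 1. The list's mean lay from 9.0 to 9.54 on the c arrays and from 8.96 to 9.28 on the x arrays. Of 15 T cell genes, 1 was higher, the homing receptor Ccr7 (0.36 ± 0.09), and 0 lower, with a median of 0.03. Cd3e (0.07 ± 0.09), Il7r (0.17 ± 0.08), Cd4 (0.04 ± 0.15) and Cd8a (-0.18 ± 0.08) did not pass, and the list's mean lay from 8.12 to 8.26 on the c arrays and from 8.12 to 8.28 on the x arrays. Of 12 natural killer and cytotoxic genes, 1 was lower, the receptor Klrd1 (-0.71 ± 0.11), and 0 higher (median -0.09; without x replicate 5, 1 higher and 1 lower), and granzyme B, Gzmb (0.43 ± 0.16), did not pass. Of 13 platelet genes, 3 were higher and 0 lower (median 0.32; without x replicate 5, 5 higher and 0 lower): Itga2b (0.41 ± 0.10), Gp5 (0.43 ± 0.09) and the ADP receptor P2ry12 (0.54 ± 0.13), while the abundant Ppbp (0.16 ± 0.06) and Pf4 (0.35 ± 0.12) did not pass. Of 9 erythroid genes, 1 was higher, Alas2 (0.24 ± 0.06), and 1 lower, Slc4a1 (-0.51 ± 0.13; median -0.05; without x replicate 5, 1 higher and 2 lower), and the transferrin receptor Tfrc (-0.40 ± 0.15) did not pass. The part of platelet and red cell RNA in the other differences was not tested. Cd79b, Tnfrsf13c, Ccr7, Itga2b, P2ry12, Alas2 and Slc4a1 no longer passed without x replicate 4. Ebf1 (-0.74, adjusted p = 0.0151), Gzmb (0.58, adjusted p = 0.00738), Pf4 (0.43, adjusted p = 0.0286) and Tfrc (-0.52, adjusted p = 0.0228) passed without x replicate 5.

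**Figure D4:**
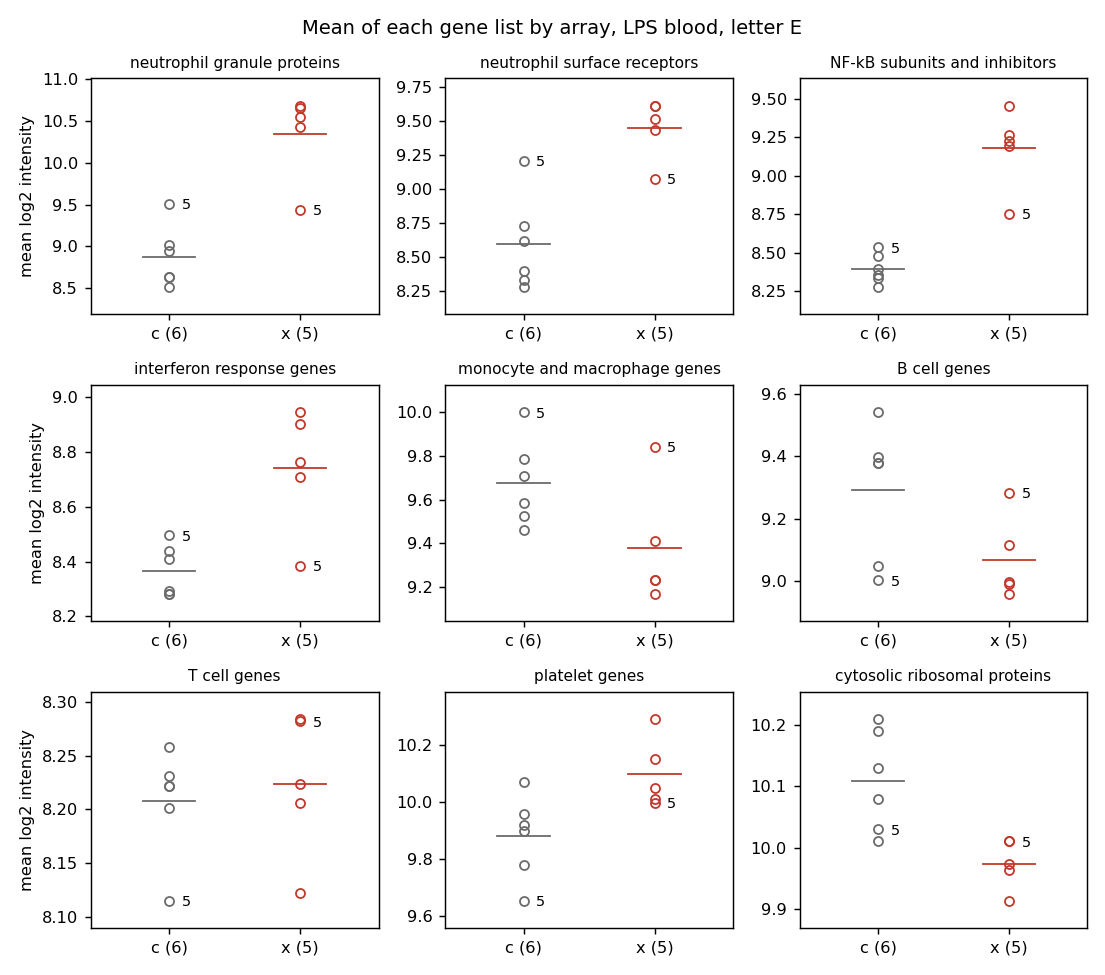
Each panel plots, for every c and x array, the mean log2 normalized intensity over the measured members of a gene list, with a line at the group mean and the number 5 beside the replicates numbered 5. The NF-kB list separates the groups (8.28 to 8.53 in c, 8.75 to 9.46 in x), the T cell list does not (8.12 to 8.26 and 8.12 to 8.28), and x replicate 5 lies near the c arrays for neutrophil granule and monocyte genes.

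Genes of basic cell functions passed more often on the lower than on the higher side, by counts that depended on the scaling. Without normalization and with median scaling, 4 and 4 of 48 cytosolic ribosomal proteins were lower. So were 11 and 11 of 79 oxidative phosphorylation subunits and 5 and 4 of 74 mitochondrial ribosomal proteins. Over all 12393 genes, 410 and 394 were lower. Of 48 cytosolic ribosomal proteins, 13 were lower and 1, Rplp0, higher, with a median of -0.10; without x replicate 5, 3 higher and 15 lower. With all arrays, 11 were lower without overlap of the arrays, against 3.19% of all genes. Rpl6 read 11.61, 11.61, 11.71, 11.63 and 11.78 on x replicates 1 to 5 and from 12.07 to 12.19 with a median of 12.12 on the c arrays, with x replicate 5 close to the other x arrays, and fell by 0.46 ± 0.04, adjusted p = 0.000609. Rps20 (-0.46 ± 0.06) and Rpl27a (-0.51 ± 0.07) fell as well. Of 79 oxidative phosphorylation subunits, 17 were lower and 4 higher (median -0.06; without x replicate 5, 9 higher and 18 lower). Uqcrb, a subunit of the third respiratory complex, read 10.72, 10.69, 10.78, 10.57 and 10.74 in x and from 11.11 to 11.36 with a median of 11.30 in c, a difference of -0.58 ± 0.05, adjusted p = 0.000513. The ATP synthase genes Atp5h (-0.45 ± 0.04) and Atp5g3 (-0.68 ± 0.07) fell, and Ndufa7 (0.32 ± 0.04) and Cox6c (0.35 ± 0.08) rose. Cox6c no longer passed without x replicate 4. Rps20 no longer passed without normalization or with each array scaled to the same median.

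Of 74 mitochondrial ribosomal proteins, 9 were lower and 0 higher (median -0.05), for example Mrps36 (-0.43 ± 0.06), Mrpl39 (-0.60 ± 0.11) and Mrps33 (-0.29 ± 0.06). Of 35 proteasome subunits, 4 were lower, among them Psma5 (-0.86 ± 0.14) and Psmd11 (-0.64 ± 0.09), and 1 higher, Psmb6 (0.31 ± 0.06; median -0.08; without x replicate 5, 1 higher and 7 lower). Of 14 heat shock chaperones, 3 were lower (1 without normalization and 2 with median scaling), the mitochondrial co-chaperonin Hspe1 (-0.67 ± 0.07), Dnajb1 (-0.58 ± 0.13) and Chordc1 (-0.38 ± 0.10), and 0 higher (median -0.10). Of 16 endoplasmic reticulum stress genes, 2 were higher, Edem1 (0.29 ± 0.06) and Atf4 (0.24 ± 0.07), and 0 lower (median -0.05; without x replicate 5, 1 higher and 0 lower), and Herpud1 (0.30 ± 0.09) did not pass. Of 23 cell cycle genes, 2 were lower, Pcna (-0.64 ± 0.12) and Rrm2 (-0.48 ± 0.09), and 0 higher (median -0.05), and Mki67 (0.11 ± 0.11) and Top2a (-0.19 ± 0.06) did not pass. Over these lists as over all others, the beta-actin ratio was lower on every x array than on every c array. Dnajb1, Chordc1 and Atf4 no longer passed without x replicate 4. Atf4 also lost its call without x replicate 5 (0.25, adjusted p = 0.0547).

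Among the 15 genes with the largest negative difference, Klf4 and Adgre4 were described above and the others belong to many functions. Map3k12, a stress kinase, read 7.29, 7.49, 6.90, 7.38 and 7.14 on x replicates 1 to 5 and from 7.99 to 8.34 with a median of 8.23 on the c arrays, and Zfp825, a zinc finger protein, read 7.99, 8.08, 8.02, 8.05 and 8.24 against values from 8.95 to 9.17 with a median of 9.05. In both, all 5 x arrays lay below all c arrays, x replicate 5 included. Map3k12 fell by 0.95 ± 0.11, adjusted p = 0.00103 and Zfp825 by 0.99 ± 0.06, adjusted p = 0.000102. The ubiquitin ligase Birc6 (-0.99 ± 0.07), Arglu1 (-0.96 ± 0.08), the nuclear transport protein Ran (-0.94 ± 0.10) and Kptn (-1.0 ± 0.16) fell too, with x replicate 5 below every c array. In Akr1a1, an aldo-keto reductase (-1.09 ± 0.19), acid ceramidase, Asah1 (-1.05 ± 0.23), Aldh9a1 (-0.99 ± 0.21) and the dipeptidase Cndp2 (-0.98 ± 0.21), x replicate 5 lay within or next to the c range. The adenylate cyclase Adcy7 (-1.04 ± 0.17), Set (-0.97 ± 0.16) and Zscan26 (-0.95 ± 0.15) also fell. Other probe sets of these genes gave values nearer 0: those of Map3k12 ranged up to -0.05, of Birc6 up to 0.04 and of Ran up to -0.07. Of 338 genes called lower that had another probe set with a mean at or above the 30th percentile, 68 (20.1%) had another called lower, 20 had another called higher, and the other probe sets had a median of -0.0425. Of 203 genes called higher, 70 (34.5%) had another called higher and 8 another called lower, with a median of 0.126. The values given for a gene are those of its brightest probe set. Asah1 no longer passed without x replicate 4.

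Whether the difference between codes depended on the infusion was tested against the sham arrays of the same model (letter A, 5 x and 6 c arrays). For no probe set did x minus c differ between the letters at limma's adjusted p of 0.05, with 1560 at an unadjusted p under 0.05. Without x replicate 5 there were 53 probe sets, covering 35 genes, and with array weights 196. Leaving out any other array of letter E gave 0. The array x replicate 5 lay toward c, so its removal tends to enlarge x minus c with letter E. In the sham arrays, 407 genes were higher in x (3.28%) and 221 lower (1.78%). Of the 676 genes higher with letter E, 629 (93.0%) were above 0 with letter A and 156 (23.1%) were called, and of the 671 lower, 648 (96.6%) were below 0 and 133 (19.8%) were called. The medians of these genes were 0.444 with E and 0.260 with A on the higher side and -0.418 and -0.281 on the lower side. Since the genes were chosen by their values with E, the smaller medians with A are a description. The beta-actin ratio differed between the codes with letter A as well, at 1.06 ± 0.0925 (SD, n = 5) in x and 1.59 ± 0.0675 (SD, n = 6) in c.

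Genes named above gave the following values in the sham arrays. With letter A, Acod1 differed by 0.86 ± 0.91, Ngp by 0.83 ± 0.79, Cxcl2 by 0.71 ± 1.0, Cxcl10 by 0.67 ± 0.45 and Relb by 0.51 ± 0.16, and none of them passed there. Without x replicate 5, the difference between letters passed for Cxcl10 (2.63 ± 0.50, adjusted p = 0.0378), Relb (1.03 ± 0.19, adjusted p = 0.0328), Irf1 (0.74 ± 0.14, adjusted p = 0.0328), Nfkb2 (0.57 ± 0.09, adjusted p = 0.0166), Parp14 (0.97 ± 0.19, adjusted p = 0.0430) and Clec5a (1.09 ± 0.22, adjusted p = 0.0438). Cd274, an inhibitory ligand for T cells, differed by 1.45 ± 0.29 (adjusted p = 0.0445) in the same fit. These p-values rest on leaving out an array chosen for its position toward c, and are given as a description. With all arrays none of these genes passed. Map3k12 (-0.99 ± 0.08, adjusted p = 0.00118) and Zfp825 (-0.98 ± 0.13, adjusted p = 0.00603) fell with letter A too, and Slc2a3 (0.83 ± 0.13, adjusted p = 0.00956) and H2-D1 (0.62 ± 0.09, adjusted p = 0.00707) rose. NF-kB subunits and inhibitors had a median of 0.05 with letter A, with 0 of 12 called higher, and neutrophil granule genes one of 0.41, with 0 of 18 called higher. In oxidative phosphorylation, 9 of 79 were higher and 2 lower with letter A, and in cytosolic ribosomal proteins 4 of 48 were higher and 1 lower. The shares over all genes with letter A were 3.28% higher and 1.78% lower, and the counts lower in both lists were near that share.

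The same codes were compared with letter E in burn blood (5 x and 6 c arrays, from injured animals), and x minus c was tested for a difference between LPS and burn. It was more positive with LPS for 752 probe sets (3.32%) and more negative for 943 (4.17%), and over genes for 433 (3.49%) and 506 (4.08%). Within burn blood, 116 genes were higher in x (0.936%) and 81 lower (0.654%). Cd177 differed by 2.94 ± 0.36 with LPS and -0.20 ± 0.77 with burn (difference 3.14 ± 0.87, adjusted p = 0.0304). Ltf, Marcksl1 and Cxcl10 differed by -0.35 ± 0.35, -0.0038 ± 0.67 and -0.09 ± 0.11 with burn, and were more positive with LPS by 3.0, 2.97 and 2.84. On the other side, Hspa1b, the inducible heat shock protein, differed by -0.02 ± 0.12 with LPS and 1.73 ± 0.20 with burn (difference -1.75 ± 0.24, adjusted p = 0.000209). The kinase Sik1 fell with LPS (-0.90 ± 0.12) and differed by 0.92 ± 0.12 with burn, and Adgre4 and Rgs2, a regulator of G protein signalling, were more negative with LPS (differences -1.80 and -1.86). Of 12 NF-kB genes, 7 were more positive with LPS than with burn, of 30 interferon genes 9, and of 14 class I and immunoproteasome genes 8. Acod1 (1.34 ± 0.93 with burn), Cxcl2 (2.65 ± 1.07) and Il1r2 (2.13 ± 0.89) did not pass the test of a difference. Within LPS blood, x minus c of Rgs2 (-1.41, adjusted p = 0.00366) passed without x replicate 5.

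Against trauma-hemorrhage (letter E, with 6 arrays of each code in blood), the test passed more often: x minus c was more positive with LPS for 1679 probe sets (7.42%) and more negative for 1676 (7.41%), and over genes for 1017 (8.21%) and 926 (7.47%). Within trauma-hemorrhage blood, 757 genes were higher in x (6.11%) and 1329 lower (10.7%). Both tests use the same 11 LPS arrays. The deposited values had medians of 138 to 145 and a floor of 32.5 in LPS blood, 120 to 128 and 27.3 in burn blood, and 117 to 127 and 28.9 in trauma-hemorrhage blood, and the part of these scales in the differences between models was not tested. Pglyrp1 differed by -0.0088 ± 0.35 with trauma-hemorrhage, against 2.81 ± 0.33 with LPS (difference 2.82 ± 0.50, adjusted p = 0.00105), and Mmp8 by 0.47 ± 0.47 against 3.03 ± 0.51. Retnla, a resistin-like secreted protein, and Hacd2, an enzyme of fatty acid elongation, were more positive with LPS by 1.92 and 1.82. Ms4a6d differed by 2.74 ± 0.36 with trauma-hemorrhage and -0.63 ± 0.29 with LPS (difference -3.37 ± 0.48, adjusted p = 0.0002), Saa3 by 3.46 ± 0.30 and 0.61 ± 0.38, Cndp2 by 1.79 ± 0.21 and -0.98 ± 0.21, and Plac8 by 1.83 ± 0.31 and -0.68 ± 0.12. Neutrophil granule genes were more positive with LPS in 3 of 18 cases and more negative in 1. Monocyte genes were more negative with LPS in 7 of 16, interferon genes in 11 of 30, proteasome subunits in 16 of 35 and cytosolic ribosomal proteins in 12 of 48. Among NF-kB genes, 10 of 12 were higher with LPS and 8 with trauma-hemorrhage, and 1 was more positive and 0 more negative with LPS in the test of the difference. The beta-actin ratio differed between the codes in trauma-hemorrhage blood in the same direction, 1.35 ± 0.219 (SD, n = 6) in x and 1.93 ± 0.117 (SD, n = 6) in c, and in burn blood in the other, 1.5 ± 0.0939 (SD, n = 5) and 1.34 ± 0.210 (SD, n = 6), and its part in the differences between models was not tested. Within LPS blood, x minus c of Plac8 no longer passed without normalization or with each array scaled to the same median. Differences of single genes between models were not rerun under these settings.

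**Figure D5:**
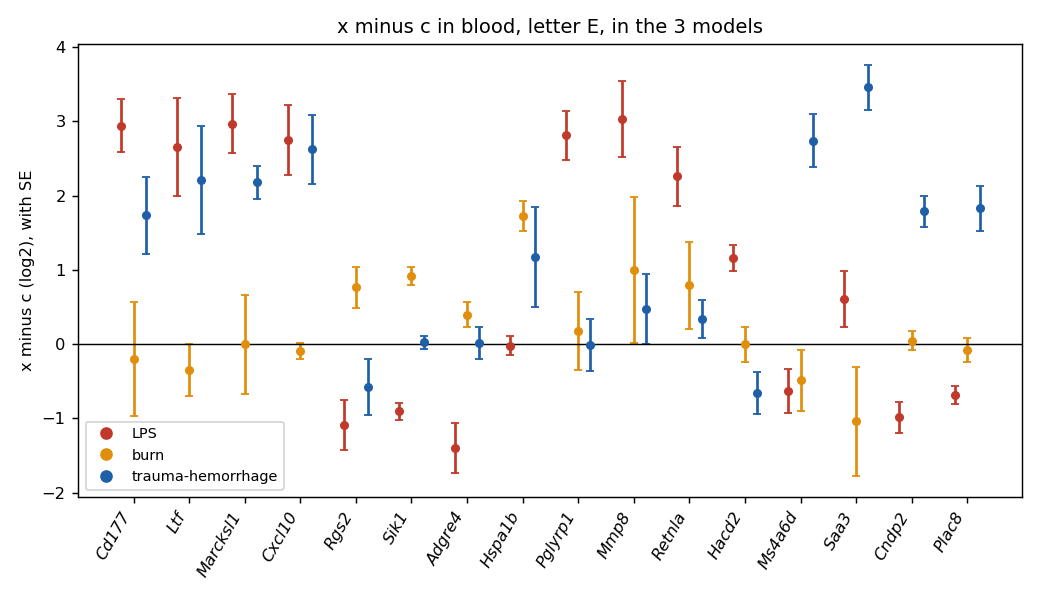
For the 16 genes named by the tests between models, x minus c (log2, with SE) in blood of letter E is plotted for LPS (red), burn (orange) and trauma-hemorrhage (blue). Cd177 stands at 2.94 with LPS and -0.20 with burn, and Ms4a6d at -0.63 with LPS and 2.74 with trauma-hemorrhage.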

How the data were processed

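Blood leukocyte RNA was measured on arrays with 1 value per probe set, and 22626 probe sets were used after 64 controls were left out of the tests. The deposited table holds intensity values on a linear scale with a floor in each model. The steps by which the authors made these intensities are not given in the sources used here. Values were changed to log2(value + 16) and then quantile normalized over all 64 blood arrays. They were fitted with limma 3.58.1 in R 4.3.3 (lmFit, eBayes with trend), two-sided, with Benjamini-Hochberg adjustment over all 22626 probe sets at 0.05. Symbols came from the platform annotation: 20380 probe sets had 1 symbol, 691 several and 1555 none. A gene, 12393 in all, is given by the probe set with the highest mean over blood arrays.

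The members and the 39 gene lists were chosen with earlier results of these data known. Named were the 15 genes with the largest difference in each direction, the 3 with the smallest p in each list, and the 4 with the largest difference in each direction in each test between comparisons. Further list members were named for their role after their values were seen, as were genes of the test between letters without x replicate 5. Groups came from the titles, where replicates were numbered in accession order. The number of arrays, 5 and 6, limits the precision. Simulated data held 100 changed probe sets of each size. In this comparison the fit recovered 69% of changes of 0.5 and 89% of changes of 1 log2. These shares were 47% and 85% between letters, 55% and 91% against burn, and 56% and 86% against trauma-hemorrhage. They hold for the simulated noise and for these brighter probe sets only, and changes in dimmer ones were not simulated. Genes with a large standard error, such as Acod1, Ngp and Cxcl2 with letter A, can be missed more often. The shares therefore do not show that differences between letters are absent. Alternatives covered the pseudocount, normalization, filter, probe set choice, variance model, array weights, fitted groups, title-number run, the beta-actin ratio and leaving out each array. The motif search read RefSeq's 27025 promoters on GRCm38.p6, both strands.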

Additional observations from a re-analysis of the deposited data

Results flagged for a closer look

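Arrays far from the others of their group were looked for in each of the 142 genes chosen by the naming rule, separately in the x and the c arrays, which makes 284 tests. Chance alone would pick out about 0.05 of such groups if they were independent and not chosen by their values. These genes share the same arrays and were chosen by their values on them. The count found is therefore a description and is not set against that share. Here 41 were picked out, and 28 of them were x replicate 5. Values are log2 normalized intensities. Among genes higher in x, x replicate 5 lay far below the other x arrays in Acod1 (9.219), Ngp (8.465), Lcn2 (10.09), Mmp8 (10.29), Marcksl1 (9.372), Clec4e (10.19), Cd177 (9.023), Camp (6.614), Cxcl10 (6.458), Wfdc21 (8.85), Il1r2 (9.162), Mmp9 (10.02), Fpr2 (10.89), Cd14 (9.299), Slpi (10.93), Arg2 (8.939), H2-D1 (11.25), Rac2 (9.956) and Retnla (10.64). Among genes lower in x, it lay far above them in Adgre4 (8.196), Klf4 (8.203), Akr1a1 (10.65), Asah1 (10.62), Aldh9a1 (9.379), Set (9.718), Ms4a6b (10.81), Klrd1 (8.852) and Psmd11 (10.11). The next array was c replicate 5, with 11. It lay far above the other c arrays in Acod1 (8.965), Ngp (8.898), Ier3 (6.705), Hdc (9.602), Cebpb (9.359), Pkm (8.525), Slc2a1 (8.785), Rgs2 (9.829) and Hacd2 (8.679), and far below them in Itga2b (7.401) and H2-Aa (11.94). Of the other c arrays, c replicate 6 stood apart in Ccrl2 (8.289) and c replicate 3 in Uqcrb (11.11). Results without x replicate 5 stand in the report, and counts without both replicates numbered 5 among the effects of the processing.

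The difference between codes depended on the model by a test of the difference itself. It differed between LPS and burn for 1695 probe sets. By the naming rule, the genes more positive with LPS were Cd177 (difference 3.14), Ltf (3.0), Marcksl1 (2.97) and Cxcl10 (2.84), and those more negative were Rgs2 (-1.86), Sik1 (-1.82), Adgre4 (-1.80) and Hspa1b (-1.75). It differed between LPS and trauma-hemorrhage for 3355 probe sets, with Pglyrp1 (2.82), Mmp8 (2.56), Retnla (1.92) and Hacd2 (1.82) more positive with LPS and Ms4a6d (-3.37), Saa3 (-2.85), Cndp2 (-2.77) and Plac8 (-2.51) more negative. No cause was tested.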

How the results depend on the processing

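Limma fits with 1 choice changed at a time gave 1171 probe sets higher and 1081 lower in x at the main settings. Without normalization 704 were lower and with each array scaled to its median 709, with 1 probe set per gene 710 were higher and 716 lower, and with array weights 2213 and 2362. With the beta-actin ratio as a covariate 2 were higher and 2 lower, with 2252 and 1757 at an unadjusted p under 0.05. The first run of title numbers alone gave 765 higher, and the second 0 higher and 0 lower (1238 and 1207 unadjusted). Without both replicates numbered 5, a choice made after seeing the data, 1865 were lower. Leaving out each array in turn gave 720 to 1502 higher and 587 to 1901 lower: x replicates 1, 2 and 4 moved the counts to 758 and 594, 742 and 679, and 720 and 587, and x replicate 5 the lower count to 1901. For the letters, 0 probe sets passed, 1 with a pseudocount of 1, 1 with 1 probe set per gene, 1 with all 12 blood groups in the fit, 196 with array weights and 0 to 53 with arrays left out. For LPS against burn, 1695 became 955 with 1 probe set per gene and 3414 with array weights (1319 to 2406 with arrays left out), and against trauma-hemorrhage 3355 became 2036 and 5142 (2592 to 3995). The beta-actin difference of -0.487 became 0.181 for Gapdh and -0.535 to -0.453 with arrays left out. Of 164 genes that passed, the covariate ended 158 calls and turned 6, to -0.04766 for P2ry12, -0.07458 for Itga2b, -0.118 for Tsc22d3, -0.2144 for Nfkb2, -0.08833 for Usp18 and -0.02203 for Zbp1. Genes that had not passed turned with it too: Ccl5 (0.08728), Mcpt8 (-0.02508), Herpud1 (-0.03031), Saa3 (-0.4654) and Hspa1b (0.0575). Hspa1b, at -0.02 with all arrays, also turned with array weights (0.04575), with the run as a block (0.007123), in the first run alone (0.1379), without both replicates numbered 5 (0.06851) and with arrays left out (-0.09284 to 0.06354). The second run ended all 164 calls, the first 32. The calls lost without normalization, with median scaling or in the larger fits are named in the report where the gene did not also depend on x replicate 4. Other settings (pseudocounts, normalization, filter, robust, no trend, shared fits, run as a block) ended between 0 and 32 of these calls and turned none. Except where a setting leaves fewer samples or fewer probe sets in the fit, the cause was not tested. No paired analysis was possible because the labels give no replicate numbers. Genes named without passing were not rerun unless the naming rule chose them. Floored intensities limit the dimmest genes: 974 probe sets were at the floor on all 11 arrays.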

Other observations

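Further genes passed the test of a difference between letters without x replicate 5. Prok2, a chemokine-like peptide, was more positive with letter E by 1.36 ± 0.22 (limma, adjusted p = 0.0141), Reck, an inhibitor of matrix metalloproteinases, by 1.41 ± 0.21 (adjusted p = 0.0141), and Plscr1, a phospholipid scramblase induced by interferon, by 1.30 ± 0.25 (adjusted p = 0.0378). Itgb2l, a integrin subunit, differed by 0.99 ± 0.18 (adjusted p = 0.0255) and grancalcin, Gca, a calcium-binding protein of neutrophils, by 1.07 ± 0.22 (adjusted p = 0.0481). On the other side were Tmem176b, a membrane protein of myeloid cells (-0.59 ± 0.10, adjusted p = 0.0255), and cathepsin B, Ctsb (-0.55 ± 0.11, adjusted p = 0.0431). With all arrays none of these passed, and x replicate 5 was left out after its position toward c was seen.

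The genes called without x replicate 5 were divided by where that array lay between the means of the c arrays (0) and the other x arrays (1). Of 870 genes higher in x, 292 had it above 0.75, 296 between, and 282 below 0.25. The division did not use the sham arrays. With letter A, x minus c was called in the same direction for 32.9%, 14.2% and 11.3% of these genes. Over all genes, 3.28% were called higher and 1.78% lower with letter A. The medians with letter A were 0.310, 0.226 and 0.109, against 0.391, 0.531 and 0.339 with letter E. Of 1104 genes lower in x, 189, 329 and 586 fell in the same positions, with 28.6%, 19.5% and 5.46% called with letter A and medians of -0.221, -0.299 and -0.208 (with letter E -0.295, -0.477 and -0.443). These divisions were made after the values were seen and are given with no test.

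The beta-actin 3′ to 5′ log2 ratio lay between 0.961 and 1.17 in the sham x arrays and between 1.49 and 1.65 in the sham c arrays of the LPS model, without overlap, as with letter E. In burn blood of letter E it lay between 1.40 and 1.65 in x and 0.967 and 1.55 in c, and in trauma-hemorrhage blood between 0.970 and 1.57 in x and 1.79 and 2.07 in c.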
